A study of Mus musculus with 12 samples.

Results

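The circadian clock genes of the intestinal muscle layer were examined in ribosome-bound RNA from mouse small intestine. The set held 10 of the 12975 genes in the count table, chosen by name as core clock and clock output genes. They were Arntl and Clock, Per1, Per2, Cry1 and Cry2, Nr1d1 and Nr1d2, and Dbp and Tef. Earlier results of these data were known when the set was chosen, so its counts beside those of all genes carry no test. All 10 were found in the table. The mice carried PLPCreERT2, a tamoxifen-activated Cre recombinase directed to enteric glial cells by its promoter, together with Rpl22HA, an allele in which Cre switches the ribosomal protein Rpl22 to a form with an HA tag. Ribosomes with the tag, and the messenger RNA bound to them, can be pulled down from a homogenate of the whole tissue. Every mouse of every group received tamoxifen (injections of 100 µl at 15 mg/ml, from 10 to 12 weeks of age) and was sacrificed 3 to 4 weeks after the start of the injections. The 3 mice of the T0 group (animals 1, 2 and 4) were naive, and the 3 mice of the T3 group (animals 1, 3 and 4, different mice from those at T0) were taken 3 h after intestinal manipulation, in which the bowel is exposed and handled so that its muscle layer becomes inflamed. The homogenate of the muscularis of each animal was divided and incubated with antibody to HA or with an IgG of the same isotype as control, which gave 12 libraries in 4 groups of 3 (HA T0, HA T3, IgG T0 and IgG T3).

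The clock of mammalian cells is a feedback loop of transcription. CLOCK and BMAL1, the latter encoded by Arntl, form a dimer that binds E-box sequences and activates the Per and Cry genes, whose proteins in turn repress the dimer, while the nuclear receptors REV-ERBα and REV-ERBβ (Nr1d1 and Nr1d2) are activated by the same dimer and repress Arntl. Dbp and Tef encode factors of the PAR bZIP family that carry the rhythm to D-box sequences of output genes. Per1 is also known as an immediate early gene that glucocorticoid and cAMP signalling can induce at any phase, and clocks of this kind run in cells of the gut wall, where food intake is one of their timing signals. The hour at which each mouse was taken was not given in the sources used here, so hour of day and time after manipulation cannot be told apart in these data, nor can manipulation and the anaesthesia and laparotomy that go with it.

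The HA libraries held 1221788 to 2870591 counts and the IgG libraries 88136 to 1289833, with all 3 IgG T3 libraries at or below 248522 (the last group is the least precise, and a count of 0 there allows up to 3 counts). Levels are given as CPM, the count scaled to a library total of 1000000. The tagged gene, Rpl22, was at 61.5 to 93.7 CPM in the HA libraries and at 10.9 to 34.0 CPM in the IgG libraries. Of 10 listed glial markers, 10 passed edgeR's test as higher in HA at T0 and 8 at T3. Among all genes, 1568 of 9823 tested passed as higher in HA at T0 and 846 of 7200 at T3. The summed level of the glial markers was 3720 to 5240 CPM in HA and 189 to 1080 CPM in IgG. The HA libraries also held other cells' RNA: the 7 smooth muscle markers summed to 12800 to 23800 CPM there, and the 3 markers of interstitial cells of Cajal, pacemaker cells of the gut muscle, to 1170 to 3370 CPM against 177 to 760 CPM in IgG. The IgG libraries, with smooth muscle markers at 41100 to 64500 CPM, stand for RNA that comes down without the tag. In such bulk samples fewer cells of a type and less RNA per cell cannot be told apart.

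At T3 the HA pull-down held higher levels than at T0 of each Per, Cry and Nr1d gene that could be tested. The call for Cry1 depended on the settings. Per1 was 12.4-fold higher, Nr1d1 3.77-fold, Nr1d2 3.55-fold, Cry2 2.21-fold and Cry1 1.91-fold, and all 5 passed the test (edgeR's quasi-likelihood test, adjusted p under 0.05). Arntl and the output genes Dbp and Tef did not pass, and Clock and Per2 were counted too seldom to be tested. Thus 5 of the 8 members tested were higher and 0 were lower, where 18.7% of all 9441 genes tested were higher, 15.1% were lower and 33.8% passed in either direction. The median log2 fold change was 1.04 over the 8 members tested and -0.02 over all genes. The CPM values of the HA T0 and HA T3 libraries did not overlap for 4 of the 8 members (Per1, Cry2 and Nr1d1 higher, Arntl lower), against 50.8% of all genes tested, 15.6% higher and 35.2% lower.

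**Figure D1:**
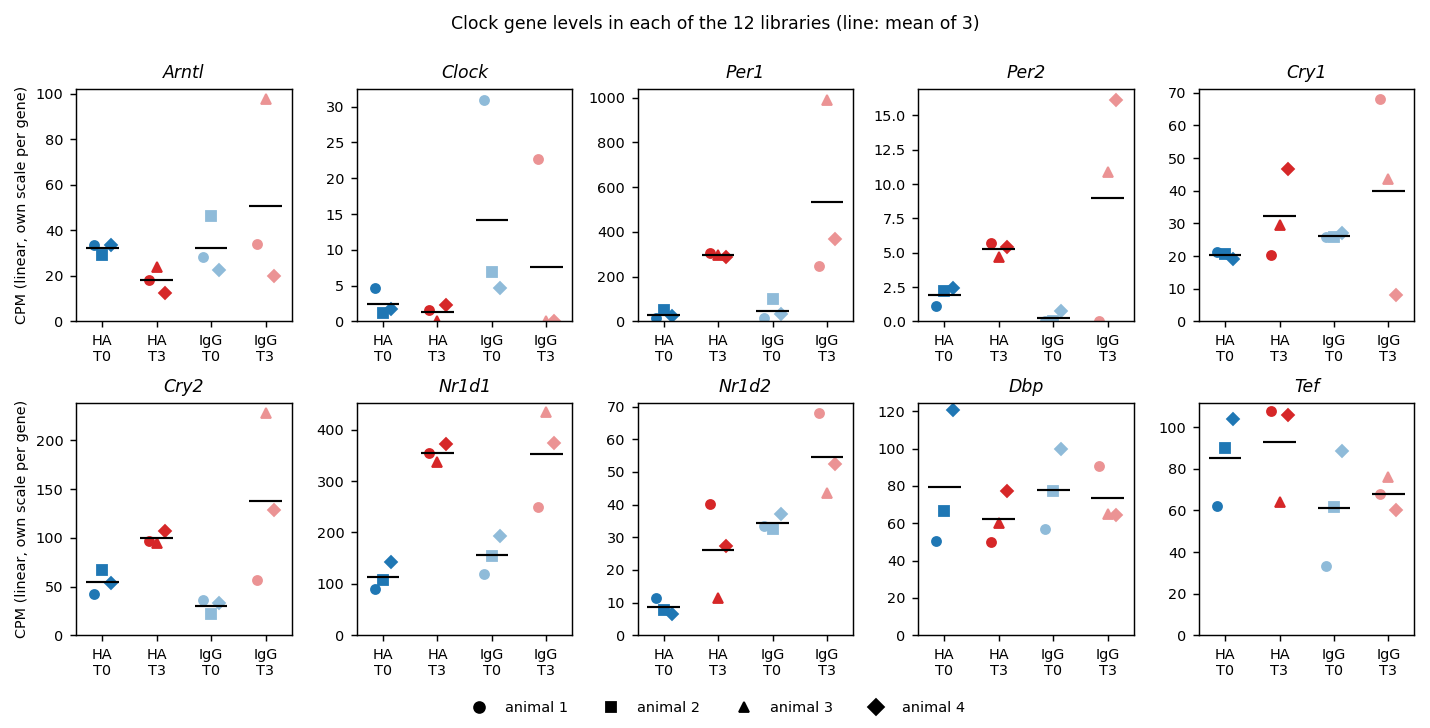
Level of each of the 10 clock genes in CPM (linear axis from 0, with its own scale for each gene) in the 4 groups, with 1 point per library, the point shape giving the animal and the line the mean of 3 libraries. Per1, Cry2 and Nr1d1 lie higher in every HA T3 library than in any HA T0 library, and Arntl lies lower.

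Per1, an E-box target and repressor of the CLOCK-BMAL1 dimer, stood at 14.2, 52.0 and 23.0 CPM in the HA T0 libraries of animals 1, 2 and 4 and at 304.5, 296 and 288 CPM in the HA T3 libraries of animals 1, 3 and 4. The T3 libraries lay close together and far above the highest T0 library, while the T0 libraries differed among themselves by a factor of 3.66. The log2 fold change was 3.63 (SE 0.40, 95% interval 2.70 to 4.56, adjusted p = 0.00023 in edgeR), rank 736 of the 9441 genes by p. Per2, the second period gene, gave 3, 4 and 7 counts at HA T0 and 7, 7 and 7 counts at HA T3. In CPM these are 1.15, 2.24 and 2.44 against 5.73, 4.68 and 5.45, which do not overlap, but the gene did not reach the filter on low counts. Without that filter its log2 fold change was 1.70 (adjusted p = 0.0325), on 14 counts in all at T0 and 21 at T3.

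The cryptochromes, the partners of the PER proteins in repression, differed in how evenly they changed. Cry2 was at 42.6, 67.0 and 53.6 CPM at HA T0 and at 96.6, 94.96 and 107 CPM at HA T3. All 3 libraries at T3 exceeded the highest at T0, and the log2 fold change was 1.15 (SE 0.20, 95% interval 0.73 to 1.56, adjusted p = 0.00018). Cry1 was at 21.1, 20.7 and 19.2 CPM at HA T0 and at 20.5, 29.4 and 46.7 CPM at HA T3. Here animal 4 was the highest and animal 1 lay within the T0 range. The log2 fold change of Cry1 was 0.93 (SE 0.29, 95% interval 0.33 to 1.54, adjusted p = 0.0176), and this call rested on single libraries: the adjusted p was 0.187 without HA T3 animal 4 and 0.055 without HA T0 animal 4. It was also lost with library totals as scaling (0.0683) and in a fit of all 12 libraries (0.053).

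Nr1d1 encodes REV-ERBα, a haem-binding nuclear receptor that represses Arntl. Its levels were 89.5, 108 and 143 CPM at HA T0 and 354, 337 and 372 CPM at HA T3. No library of one time reached the range of the other, and the T3 libraries were again close together. The log2 fold change was 1.92 (SE 0.19, 95% interval 1.53 to 2.30, adjusted p = 9.36e-08), the smallest p of the members and rank 193 among all genes. Nr1d1 lies on chromosome 11 (GRCm38, 98767932 to 98775333, minus strand), and its counting window, 1000 bases before to 100 bases after the 3′ end, lies wholly over Thra, the thyroid hormone receptor α gene on the opposite strand. Whether counting used the strand is not given, so counts of the pair may not be separate. Thra itself was at 62.2, 59.8 and 52.2 CPM at HA T0 and 101, 51.5 and 49.8 CPM at HA T3, which overlap (log2 fold change 0.47, adjusted p = 0.152).

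Nr1d2, the gene of the related receptor REV-ERBβ, was at 11.5, 7.82 and 6.62 CPM at HA T0 and at 40.1, 11.4 and 27.2 CPM at HA T3. The T3 library of animal 3 fell just below the highest T0 library, so the groups overlapped although the log2 fold change was 1.83 (SE 0.40, 95% interval 0.97 to 2.68, adjusted p = 0.00256). The call held under each of the 13 alternatives run (adjusted p at most 0.0175). The same was true of Per1, Cry2 and Nr1d1 (adjusted p at most 0.00636, 0.00337 and 4.97e-06).

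Arntl, the gene of BMAL1, was at 33.4, 29.0 and 33.8 CPM at HA T0 and at 18.0, 24.1 and 12.5 CPM at HA T3. Each T3 library was lower than each T0 library in CPM, the direction in which more of all genes separated than in the other. The log2 fold change was -0.55 (SE 0.27, 95% interval -1.12 to 0.03, adjusted p = 0.132), so the difference did not pass the test. Scaling by library totals, which moved the median of all genes to -0.29, gave -0.81 (adjusted p = 0.023). Single libraries also moved the value, to -0.81 without HA T3 animal 3 (adjusted p = 0.0501) and to -0.33 without HA T3 animal 4 (0.44). Clock, the gene of the partner of BMAL1, gave 12, 2 and 5 counts at HA T0 and 2, 0 and 3 counts at HA T3, and a difference was not detectable at this depth.

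Among the output genes, Dbp was at 50.3, 66.5 and 121 CPM at HA T0 and at 49.9, 60.2 and 77.1 CPM at HA T3. All HA T3 libraries but that of animal 1 lie within the T0 range, and the log2 fold change was -0.07, with a 95% interval from -0.66 to 0.53 (adjusted p = 0.873). The 3′ window of Dbp (chromosome 7, 45705088 to 45710203, plus strand) shares 76.0% of its length with Sphk2 on the opposite strand, the gene of a sphingosine kinase, whose log2 fold change was -0.15 (adjusted p = 0.627). Tef was at 62.2, 90.0 and 104 CPM at HA T0 and at 108, 64.2 and 106 CPM at HA T3. Its log2 fold change was 0.39 (95% interval -0.07 to 0.85, adjusted p = 0.185). Without the HA T3 library of animal 3 the log2 fold change was 0.61 and the adjusted p 0.0332. The 95% intervals of Dbp and Tef lie below those of Per1, Nr1d1 and Nr1d2, and that of Dbp also below that of Cry2.

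**Figure D2:**
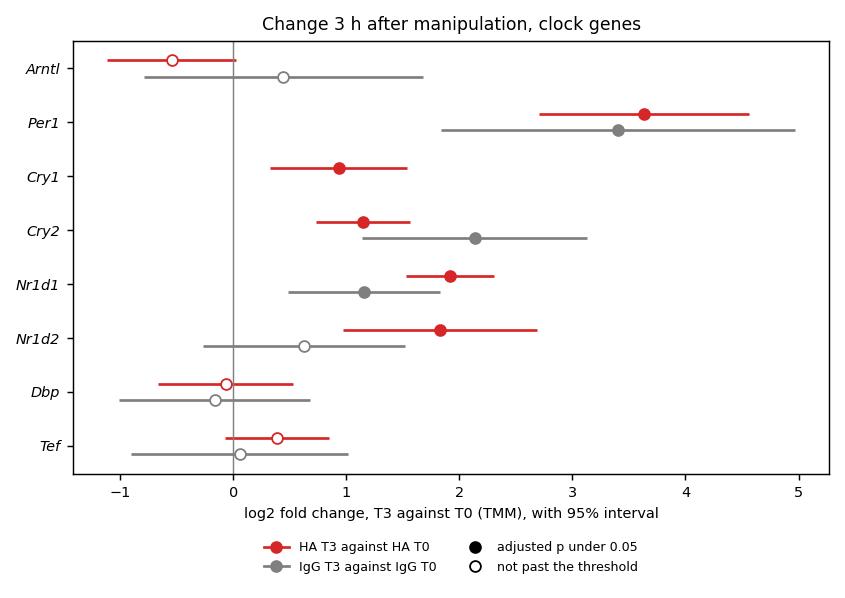
Log2 fold change of T3 against T0 with its 95% interval for the clock genes that could be tested, in the HA pull-down (red) and in the IgG pull-down (grey), with filled points for adjusted p under 0.05. The 5 called genes in HA range from 0.93 for Cry1 to 3.63 for Per1, and Cry1 could not be tested in IgG.

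The members can also be set against each other within a library, which removes any scaling between libraries. These pairs were chosen after their values were seen and carry no test. For each Arntl count the HA T0 libraries of animals 1, 2 and 4 held 2.68, 3.71 and 4.22 counts of Nr1d1, and the HA T3 libraries of animals 1, 3 and 4 held 19.6, 14.0 and 29.9. The ratio of Nr1d1 to Dbp was 1.78, 1.62 and 1.18 at HA T0 and 7.08, 5.6 and 4.83 at HA T3. For Per1 against Arntl the ratios were 0.425, 1.79 and 0.680 at HA T0 and 16.9, 12.3 and 23.1 at HA T3. All 3 ratios were thus higher in each HA T3 library than in each HA T0 library. For the ratios to Arntl this had to follow from the CPM values above, which separated upwards for Nr1d1 and Per1 and downwards for Arntl. In IgG the same separation held for Nr1d1 to Dbp (1.93 to 2.09 at T0 and 2.75 to 6.67 at T3) and for Per1 to Arntl (0.545 to 2.15 and 7.33 to 18.2), but not for Nr1d1 to Arntl (3.33 to 8.59 and 4.44 to 18.6). In HA the ratio of Cry2 to Cry1 overlapped, with 2.02, 3.24 and 2.80 at T0 and 4.72, 3.23 and 2.28 at T3. The ratio of Nr1d1 to Thra, its neighbour on the other strand, was 1.44, 1.80 and 2.73 at HA T0 and 3.51, 6.55 and 7.47 at HA T3.

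**Figure D3:**
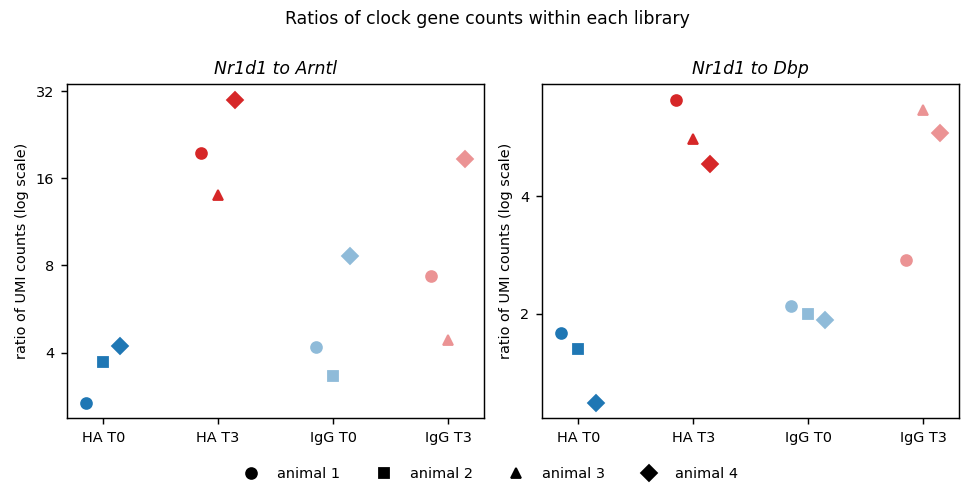
Ratio of Nr1d1 counts to Arntl counts (left) and to Dbp counts (right) in each library on a log axis, 1 point per library with the shape giving the animal. In HA the T3 ratios, 14.0 to 29.9 and 4.83 to 7.08, lie above all T0 ratios, and in IgG the Nr1d1 to Dbp ratios are also without overlap, while the Nr1d1 to Arntl ratios overlap.

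Because Per, Cry and Nr1d genes are known E-box targets, the promoter windows of the members (250 bases before to 50 after a start, RefSeq, GRCm38.p6) were searched on both strands for the E-box CACGTG, the D-boxes TTATGTAA and TTACGTAA, the cAMP response element TGACGTCA and the core AGGTCA of the sites that REV-ERB receptors bind. Windows were given for 9 of the 10 members, 14 in all. The E-box was in 4 of the 14, those of Per1 and Cry1 and 2 windows of Tef, and in 7.15% of the 32851 windows of all genes. The AGGTCA core was in 4 of the 14 (Clock, Arntl, Per1 and Nr1d2) and in 16.3% of all windows. Matches to the D-boxes and to the cAMP response element were found in 0 of the 14 (0.938%, 0.119% and 1.79% of all windows), and 0 matches overlapped each other. Of the called members, Nr1d1 and Cry2 had no match in their windows, and Nr1d2 had no E-box there. Sites outside the windows were not searched. The stretches below, 5′ to 3′ on the strand of the gene, show the matched letters in capitals. They are from Per1, Cry1 and Nr1d2, the called members with a match, and from Tef, which holds an E-box and was not called. In the Per1 stretch the second run in capitals is the receptor core read on the other strand, and the Nr1d2 stretch shows that core alone. The Per1 stretch is chr11:69098758-69098842 on the plus strand, inside the annotated gene but in no annotated exon.
Per1: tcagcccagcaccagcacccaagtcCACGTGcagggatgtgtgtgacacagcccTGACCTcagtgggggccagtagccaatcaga
The Cry1 stretch is chr10:85185084-85185139 on the minus strand, before the annotated start of the gene.
Cry1: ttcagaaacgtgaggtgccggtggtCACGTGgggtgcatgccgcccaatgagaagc
The Tef stretch is chr15:81811251-81811306 on the plus strand, inside the annotated gene but in no annotated exon.
Tef: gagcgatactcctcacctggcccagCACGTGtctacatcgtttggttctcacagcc
The Nr1d2 stretch is chr14:18239153-18239208 on the minus strand, before the annotated start of the gene.
Nr1d2: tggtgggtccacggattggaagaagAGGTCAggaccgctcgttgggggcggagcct

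A list of 22 further genes of the clock pathway (other repressors, kinases and ubiquitin ligases that set the stability of PER and CRY, and outputs) gave 20 genes in the table, of which 11 could be tested in HA. Of these, 7 were higher at T3 and 0 were lower, with a median log2 fold change of 0.90, where 18.7% of all genes tested were higher and 15.1% lower. Without the filter on low counts all 20 were tested, and 9 were higher and 1 was lower. In that setting 1878 of all 12969 genes were higher and 1424 lower. Ccrn4l, the gene of the rhythmic phosphatase nocturnin, was at 6.14, 3.91 and 1.74 CPM at HA T0 and at 45.8, 57.5 and 36.6 CPM at HA T3 (log2 fold change 3.83, SE 0.36, adjusted p = 8.03e-08). Bhlhe40, the gene of DEC1, which competes with CLOCK-BMAL1 at E-boxes, was at 21.5, 17.9 and 26.5 CPM and then at 111, 121 and 98.1 CPM (log2 fold change 2.58, SE 0.21, adjusted p = 7.46e-09). Nfil3, the gene of E4BP4, which represses at the D-boxes where DBP and TEF activate, was at 15.4, 14.0 and 10.4 CPM and then at 48.3, 41.5 and 47.5 CPM (log2 fold change 2.05, SE 0.26, adjusted p = 3.77e-06). For all 3, each T3 library was above each T0 library, and in fitted fold change Ccrn4l exceeded all members tested and Bhlhe40 all but Per1. Csnk1d, the gene of casein kinase 1δ, which phosphorylates PER, had a log2 fold change of 1.05 (adjusted p = 0.000187) and Usp2, the gene of a deubiquitinase, 0.90 (adjusted p = 0.00157). Csnk1e at 0.53 (adjusted p = 0.0293) and Wee1, a cell cycle kinase gene with E-boxes, at 1.23 (adjusted p = 0.0322) passed narrowly and lost the call in 8 and 10 of 13 alternatives. Cipc, at -0.16, and Btrc, at 0.31, did not pass the threshold.

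**Figure D4:**
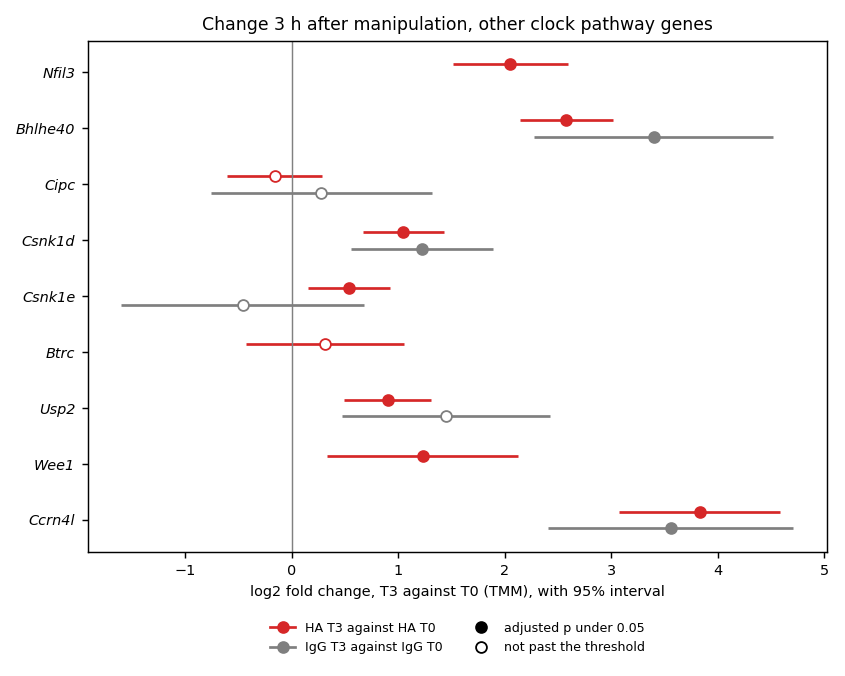
Log2 fold change of T3 against T0 with its 95% interval for 9 other clock pathway genes that could be tested in HA (red) and, where possible, in IgG (grey), with filled points for adjusted p under 0.05. Ccrn4l, Bhlhe40 and Nfil3 are the farthest from 0 in HA, at 3.83, 2.58 and 2.05.

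In the IgG pull-down, which was taken from the same mice, 7 members could be tested and 3 were higher at T3 (Per1, Cry2 and Nr1d1), where 4.43% of the 5219 genes tested were higher and 5.46% passed in either direction. Per1 was at 15.5, 99.4 and 31.8 CPM in the IgG T0 libraries of animals 1, 2 and 4 and at 249.6, 989 and 366 CPM in the IgG T3 libraries of animals 1, 3 and 4. The lowest T3 library was above the highest T0 library, and the log2 fold change was 3.40 (SE 0.69, 95% interval 1.84 to 4.97, adjusted p = 0.0239). Nr1d1 was at 118, 154 and 193 CPM and then at 249.6, 435 and 374 CPM, also without overlap (log2 fold change 1.16, SE 0.31, adjusted p = 0.0474). Cry2 was at 36.1, 22.3 and 33.3 CPM and then at 56.7, 228 and 129 CPM, the T3 libraries resting on 5, 21 and 32 counts (log2 fold change 2.13, SE 0.46, adjusted p = 0.0135). These 3 calls were less firm than those in HA. That of Per1 was lost without IgG T3 animal 3 (adjusted p = 0.0607), without IgG T3 animal 4 (0.0859) and with a looser filter on low counts (0.108), that of Cry2 in 5 of 13 alternatives (adjusted p up to 0.0965) and that of Nr1d1 in 8 of 13 (up to 0.185).

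The CPM values of IgG T0 and IgG T3 did not overlap for 4 of the 7 members, all higher at T3 (the 3 called genes and Nr1d2), against 13.4% of all genes in that direction and 26.0% in either. Nr1d2 was at 33.5, 32.6 and 37.2 CPM at IgG T0 and at 68.1, 43.5 and 52.3 CPM at IgG T3, on 6, 4 and 13 counts, and did not pass the test (log2 fold change 0.62, 95% interval -0.27 to 1.52, adjusted p = 0.42). Arntl at 28.3, 46.3 and 22.5 CPM and then at 34.0, 97.8 and 20.1 CPM overlapped (log2 fold change 0.44, 95% interval -0.79 to 1.68). Dbp, at 56.7 to 100.0 CPM at T0 and 64.4 to 90.8 CPM at T3, and Tef, at 33.5 to 88.4 CPM and 60.4 to 76.1 CPM, also overlapped, with log2 fold changes of -0.16 (95% interval -1.01 to 0.68) and 0.05 (95% interval -0.91 to 1.01). The IgG T3 values rest on only 8, 6 and 16 counts of Dbp and 6, 7 and 15 counts of Tef. Cry1 was at 25.8, 25.7 and 27.1 CPM at IgG T0, close together, but was counted only 6, 4 and 2 times in the IgG T3 libraries and could not be tested. The same held for Clock (12, 4 and 6 counts at T0 and 2, 0 and 0 at T3) and Per2 (0, 0 and 1 counts at T0 and 0, 1 and 4 at T3). Of the other pathway genes 3 of 7 tested were higher in IgG, against the 4.43% of all genes: Ccrn4l (log2 fold change 3.56, adjusted p = 0.0009), Bhlhe40 (3.40, adjusted p = 0.00105) and Csnk1d (1.22, adjusted p = 0.0342, a call lost in 7 of 13 alternatives).

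Whether a change at T3 differed between the pull-downs was tested directly, as the interaction of antibody and time over the 12 libraries. By edgeR's quasi-likelihood test 0 of the 8 members passed, and 0.33% of all 10314 genes did. The count was also 0 with DESeq2, which gave an adjusted p for 5 of the 8, and with each other alternative run. At an unadjusted p under 0.05 there were 2 members. For Nr1d1 the change in HA exceeded that in IgG by 0.85 on the log2 scale (95% interval 0.13 to 1.57, adjusted p = 0.389), and for Nr1d2 by 1.29 (95% interval 0.06 to 2.51, adjusted p = 0.457). For Per1 the difference was 0.32 with an interval from -1.83 to 2.48, and for Cry2 -0.92 with an interval from -1.86 to 0.03, so differences of more than 1 log2 unit either way for Per1, or towards IgG for Cry2, lie within these intervals. The median difference over all genes was 0.18 with TMM scaling and -0.18 with library totals, and the sizes above are read against that shift.

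Cell type markers moved with time in both pull-downs, and their part in the clock gene values was not tested. Among all genes tested, 18.7% were higher at T3 and 15.1% lower in HA, and 231 and 54 of 5219 in IgG. In HA 2 of 7 smooth muscle, 1 of 4 macrophage and 1 of 5 epithelial markers tested were lower at T3. Of the neuronal markers, 2 of 6 tested were higher in HA. The 4 mesothelial markers summed to 121 to 162 CPM at HA T0 and 12.5 to 18.8 CPM at HA T3, and to 348 to 675 CPM and 65.2 to 96.6 CPM in IgG, with 3 of 3 tested lower at T3 in each. The 5 fibroblast markers summed to 674 to 934 CPM at HA T0 and 188 to 349 CPM at HA T3, with 3 of 5 lower, and to 2020 to 2280 CPM and 652 to 1350 CPM in IgG, with 1 of 5 lower. The markers of interstitial cells of Cajal went from 2600 to 3370 CPM at HA T0 to 1170 to 1530 CPM at HA T3, with 2 of 3 lower, and from 233 to 316 CPM to 177 to 760 CPM in IgG, with 0 of 2 tested called. Glial markers summed to 3720 to 4590 CPM at HA T0 and 4560 to 5240 CPM at HA T3, with 3 of 10 higher and 1 lower, and to 189 to 250 CPM at IgG T0 and 249 to 1080 CPM at IgG T3, with 1 of 4 tested higher. Of 5 markers of neutrophils and monocytes the 3 in the table summed to 1.39 to 5.59 CPM at HA T0 and 18.1 to 116 CPM at HA T3, and to 8.53 to 17.1 CPM at IgG T0, where S100a8 and S100a9 were at 0 in all libraries, and 21.7 to 250 CPM at IgG T3.

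Which members were richer in tagged ribosomes than in the control pull-down was asked by comparing HA with IgG. At T0 1 of the 8 members tested differed, Nr1d2, which was lower in HA, where 14.4% of 9823 genes were lower, 16.0% were higher and 30.3% passed in either direction. Nr1d2 was at 11.5, 7.82 and 6.62 CPM in HA and at 33.5, 32.6 and 37.2 CPM in IgG, a log2 difference of -2.01 (SE 0.35, 95% interval -2.76 to -1.27, adjusted p = 0.000689). In each of the 3 animals the IgG library was the higher, and the ranges were far apart. Cry2 showed the opposite order, with 42.6, 67.0 and 53.6 CPM in HA above 36.1, 22.3 and 33.3 CPM in IgG, and lay at the threshold (log2 difference 0.80, SE 0.29, adjusted p = 0.0503). With the animal as a block, which pairs the HA and IgG libraries of 1 mouse, Cry2 passed as higher in HA (0.79, adjusted p = 0.033) and Nr1d1 as lower in HA (-0.49, adjusted p = 0.037, against -0.51 and 0.104 without the block). The values of HA and IgG did not overlap for 3 of the 8 members (Cry2 higher, Nr1d2 and Cry1 lower), against 44.8% of all genes, 24.7% higher and 20.1% lower.

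The remaining members tested showed no called difference at T0. Clock and Per2 were counted too seldom to be tested, and their CPM values did not overlap. The means were 2.49 in HA and 14.1 in IgG for Clock and 1.94 and 0.258 for Per2. Without the filter on low counts the edgeR log2 differences were -2.09 for Clock (adjusted p = 0.0551) and 2.02 for Per2 (0.265). Without IgG T0 animal 4 Clock could be tested and passed as lower in HA (-2.73, adjusted p = 0.0284). Per1 had a log2 difference of -0.78 (95% interval -2.64 to 1.09), Cry1 -0.40 (-1.02 to 0.22), Arntl 0.01 (-0.64 to 0.65), Dbp -0.05 (-0.72 to 0.61) and Tef 0.37 (-0.26 to 1.00). Of the other pathway genes tested at T0, Bhlhe40 alone of 9 passed, with 1.61 towards HA (adjusted p = 0.0125), where 16.0% of all genes were higher. At T3 0 of 8 members passed, against 21.9% of 7200 genes, and at an unadjusted p under 0.05 the count was also 0, as was the adjusted count by DESeq2. The values there were Arntl -1.11 (95% interval -2.27 to 0.06), Nr1d2 -0.98 (-2.05 to 0.10) and Per1 -0.71 (-1.45 to 0.03), and the other 5 lay between -0.37 and 0.56. Without IgG T3 animal 1 Per1 passed as lower in HA (-0.91, adjusted p = 0.0467). Nr1d2 was the only member without overlap at T3, at 11.4 to 40.1 CPM in HA and 43.5 to 68.1 CPM in IgG, where 35.8% of all genes did not overlap and 16.4% were lower.

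**Figure D5:**
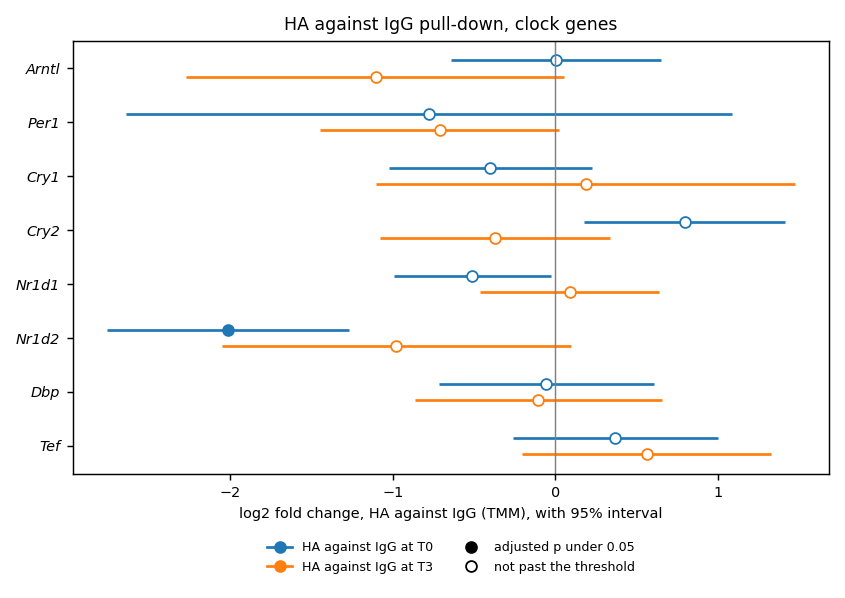
Log2 difference of HA against IgG with its 95% interval for the 8 clock genes that could be tested, at T0 (blue) and at T3 (orange), with a filled point for adjusted p under 0.05. Nr1d2 at T0, at -2.01, is the only filled point, and Cry2 at T0 lies next to the threshold.

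Ordered by their mean over 3 libraries, the levels of Per1 were 535 CPM at IgG T3, 296 at HA T3, 48.9 at IgG T0 and 29.7 at HA T0. The neighbours in this order overlapped within each time, and HA T3 did not overlap IgG T0. For Nr1d1 the order was 354 CPM at HA T3, 353 at IgG T3, 155 at IgG T0 and 113 at HA T0, and again the gap without overlap was that between the times. Cry2 was at 138 CPM at IgG T3, 99.4 at HA T3, 54.4 at HA T0 and 30.6 at IgG T0, and in this order the top pair overlapped and the other neighbours did not. The means of Nr1d2 were ordered by pull-down, with 54.6 CPM at IgG T3, 34.4 at IgG T0, 26.2 at HA T3 and 8.65 at HA T0. Of the neighbours in this order the IgG groups alone did not overlap, and HA T3, at 11.4 to 40.1 CPM, overlapped IgG T0. Arntl was at 50.6 CPM at IgG T3, 32.4 at IgG T0, 32.1 at HA T0 and 18.2 at HA T3, where the last step alone was free of overlap, and Cry1 at 39.9 CPM at IgG T3, 32.2 at HA T3, 26.2 at IgG T0 and 20.3 at HA T0, where again the last step alone was. In Dbp (62.4 to 79.2 CPM) and Tef (61.2 to 92.7 CPM) every pair of neighbours overlapped. These orders are within a gene, since the 3′ counts of different genes share no length scale.

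The genes most like each member were found by the root mean square difference in log2 CPM, each gene centred on its own mean, over the 12 libraries and 10314 genes. Nearest to Per1 were Kdm6b, the gene of a histone demethylase (0.56), Bcl3, the gene of an IκB family protein (0.64), and Sbno2 (0.68), where the median gene was at 2.18. Nr1d1, the member nearest to Per1, was at 1.25 and ranked 188. Nearest to Nr1d1 were Mnt, the gene of a MAX-binding repressor (0.27), Tubb6, a β-tubulin gene (0.30), and Hivep2 (0.31), with Cry2 the nearest member at 0.58. Cry2 was nearest to Dennd4a (0.35), Nt5dc3 (0.37) and Mapkapk3 (0.38), Nr1d2 to Nmd3 (0.36), Crmp1 (0.40) and Pls3 (0.41), and Cry1 to Fam98b (0.39), Zfp334 (0.41) and Arhgap22 (0.42). Arntl was nearest to Gbf1 (0.26), Ctage5 (0.31) and Klc4 (0.32). Dbp and Tef, the related output factors, were each other's nearest member at 0.46, behind Zc3h4 (0.24), Atp5a1 (0.25) and 2310033P09Rik (0.27) for Dbp and Mepce (0.18), Map1s (0.26) and Chmp1a (0.27) for Tef. The nearest member ranked 130 for Cry2, 318 for Nr1d1, 493 for Tef, 655 for Dbp, 771 for Cry1, 935 for Nr1d2 and 2158 for Arntl. Genes outside the set far outnumber the members, so closer genes outside it do not show whether members resemble each other.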

How the data were processed

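Per the labels, 3′ libraries with unique molecular identifiers (UMIs) were made by a bulk variant of MARS-seq. The labels say that barcoded samples were pooled before amplification, and which libraries shared a pool was not given. After trimming with cutadapt, the authors mapped reads to mm10 with STAR 2.4.2a, kept unique mappers and counted UMIs with HTSeq over 1000 bases before to 100 bases after each 3′ end. The deposited values are raw UMI counts per gene, and the table of the whole series differed from the single files of the 12 samples in 0 values.

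The counts were scaled by TMM, filtered with filterByExpr and tested with edgeR 4.0.16 (R 4.3.3) by the quasi-likelihood F-test with robust estimation, 2-sided, over all genes, with Benjamini-Hochberg adjustment and a threshold of 0.05. Each of 4 contrasts of 2 groups used its 6 libraries, and the interaction used all 12. SE and 95% intervals came from the same fit. Replicates were separate mice. The floor of 3 counts covers counting error only. The alternatives were RLE scaling, library totals, no filter, at least 5 counts in 1 library, DESeq2 1.42.0, a fit of all 12 libraries, blocks, and each library left out. The code was tested on simulated counts, drawn with the same spread setting for every gene and without pairing of libraries. That run checked the code and not how the tests behave at the spread of these data.

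HA and IgG libraries of 1 animal come from 1 homogenate, so the animal served as a paired block in an alternative. Their deviations from the group means correlated at 0.277 to 0.282 at T0 and 0.138 to 0.193 at T3 across genes. Different mice with the same label number at T0 and T3 gave 0.157 in HA and 0.169 in IgG for number 1. For number 4 they gave 0.011 and 0.012. The T3 values of 1 animal are thus not all above those of different mice. The members and gene lists were chosen with earlier results of these data known. The text names all 10 members, the other pathway genes by counts with values for those that passed, and the 3 genes nearest to each member that passed the filter (prior count 2 for log2 CPM), the genes of overlapping windows being added after values were seen. Positions are from GENCODE on GRCm38 (mm10). Some genes of the pathway list are counted but not reported here by name.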

Additional observations from a re-analysis of the deposited data

How the results depend on the processing

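Over the alternatives run, values of tested members stayed on their side of the threshold 509 times, lost the call 20 times, gained it 11 times and turned a called direction 0 times. Of the counts of called genes, those for HA T3 against T0 stayed within 1.5 times (members 4 to 7 against 5, the 7 with a replicate block by label number, which added Arntl at -0.88, adjusted p = 0.0319, and Tef at 0.67, adjusted p = 0.0129), but library totals as scaling turned the split of all genes from 1765 higher and 1422 lower to 1202 and 2660. For IgG T3 against T0 the 3 members became 1 with at least 5 counts in 1 library, 1 with a replicate block by label number (different mice, so not a true pairing) and 0 to 3 with 1 library left out. There, all genes went from 285 to 519 without a filter, 705 in the fit of all 12 libraries and 162 to 334 with 1 library left out, and the other pathway genes from 3 to 5 in the fit of all 12. For HA against IgG at T0 the 1 member became 2 with library totals, no filter or at least 5 counts, 3 with the animal as replicate block and 1 to 2 with 1 library left out, and the 1 other pathway gene became 3, 2, 2, 3 and 1 to 2 (no filter, at least 5 counts, all 12 libraries, animal block, 1 left out). At T3 the 0 members became 0 to 1 and all genes went from 1578 to 849 to 1977 with 1 library left out, and the other pathway genes from 0 to 1 without a filter and 0 to 1 with 1 left out. The interaction called 34 genes, and 20 with RLE scaling, 8 with library totals, 80 with DESeq2, 158 with the animal as replicate block and 5 to 95 with 1 library left out. The block changed no member call beyond those given. The causes were not tested. Depth limits Per2, Clock and, in IgG T3, Cry1, Arntl, Nr1d2, Dbp and Tef.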

Other observations

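Libraries of a group differed in clock gene levels, and at T0 their order by animal was the same in both pull-downs for some members. Each animal gave 1 library per pull-down, so within a pull-down animal and library cannot be told apart. At T0 the 3 animals ranked in the same order in HA and in IgG for 4 of the 8 members that could be tested (Per1, Nr1d1, Dbp and Tef, 50.0%) and for 23.6% of 9823 genes. Nr1d1, Dbp and Tef were lowest in animal 1 and highest in animal 4 in both pull-downs, and Per1 was highest in animal 2, at 52.0 CPM in HA and 99.4 CPM in IgG. The total count of the IgG T0 libraries was likewise lowest in animal 1 and highest in animal 4, and the part of depth in these orders was not tested. At T3 the order was shared by 2 of 8 members (Arntl and Nr1d2, 25.0%), about the share of all genes (22.0% of 7200). This comparison was added after the values were seen.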
